A study of Mus musculus with 6 samples.

Results

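The insulin and IGF axis genes described here are 10 mouse genes: *Igf1*, *Igfals*, *Igfbp1*, *Igfbp2*, *Igfbp3*, *Igfbp4*, *Igf1r*, *Insr*, *Irs1* and *Irs2*. They were taken by gene symbol from a liver RNA-seq table of 27179 genes, and each of the 10 matched 1 row. The libraries came from the livers of 3 LSD1-LKO and 3 Control mice of the C57BL/6 strain. All 6 mice carried the LSD1-lox/lox alleles. LSD1-LKO mice received AAV8-TBG-cre through the tail vein at 6 to 7 weeks of age, and Control mice received AAV8-TBG-GFP. TBG is a hepatocyte promoter, used here to direct Cre to hepatocytes of adult mice. LSD1 is a histone demethylase encoded by *Kdm1a*, and its level in the other cells of the liver was not measured here. Per the labels, a high-fat diet began 1 week after injection and lasted 12 weeks. The duration given in the methods of the study differs, and which holds for these livers was not resolved.

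The value used for each gene was the authors' mean of normalized read counts over all 6 livers, the base mean. LSD1-LKO and Control livers are pooled in it, so the levels below show nothing about the effect of the knockout, carry no error between animals and allow no test. They describe how much RNA of each gene the pooled livers held. The sum of base means over all genes was 20658827, and the depth of each library is unknown. *Kdm1a* had a base mean of 219 and a level of 72.7 per kb. Because the groups are pooled, this value does not check the labels.

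Insulin and IGF-1 signal through related receptor tyrosine kinases, the insulin receptor and the IGF-1 receptor, which phosphorylate the IRS adaptors and thereby activate PI3K and AKT. The liver is the main source of circulating IGF-1, made under the control of growth hormone. In plasma, most IGF-1 travels in a complex with an IGF binding protein and the acid-labile subunit, which prolongs its life in the circulation. Hepatocytes are a major target of insulin and carry few IGF-1 receptors.

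The promoters of 3 members, *Igfbp1*, *Irs1* and *Irs2*, are shown because they held the insulin response sequence CAAAACAA, best known from the promoter of IGFBP1 and bound by FOXO factors, which insulin keeps out of the nucleus. The stretches below were taken from RefSeq on build GRCm38.p6 and lie upstream of the annotated transcript start, 5′ to 3′ on the strand of the gene. Capitals mark the motif, which reads as its reverse complement TTGTTTTG in *Irs1* and *Irs2*.
Igfbp1: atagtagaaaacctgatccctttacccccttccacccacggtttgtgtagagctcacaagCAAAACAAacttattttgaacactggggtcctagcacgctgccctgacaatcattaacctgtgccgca
Irs1: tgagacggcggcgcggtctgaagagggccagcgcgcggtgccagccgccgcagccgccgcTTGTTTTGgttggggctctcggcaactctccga
Irs2: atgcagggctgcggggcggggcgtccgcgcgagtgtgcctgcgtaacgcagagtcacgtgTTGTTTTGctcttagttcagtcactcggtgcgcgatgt
The *Igfbp1* stretch lies at chr11:7197619-7197746 on the plus strand, and its motif begins at position -108 from the start. The *Irs1* stretch lies at chr1:82291440-82291532 on the minus strand, with the motif at -33. The *Irs2* stretch lies at chr8:11008930-11009027 on the minus strand, with the motif at -38. This stretch is outside the *Irs2* span given below, which comes from another annotation, so that position depends on the annotation.

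Promoter windows of 250 bases before to 50 bases after the start were at hand for 9 of the 10 members, with 12 windows in all, since *Igfbp2* has 2 and *Igfals* has 3. No window was read for *Insr*. A total of 7 motifs were searched on both strands. CAAAACAA was found in 3 of the 12 windows, against 2.51% of the 32851 windows of all genes. Its shorter form TGTTTTG is part of the reverse complement TTGTTTTG, so the windows of these 3 genes had to hold it. It was found in no other member window and in 6.28% of all windows. In *Irs1* it occurred at a further position. The GC box GGGCGG was present in 6 windows of 5 members (*Igf1r*, *Igfals*, *Igfbp2*, *Irs1* and *Irs2*), against 35.7% of all windows. The E-box CACGTG was present in 1 window each of *Igfbp2*, *Irs1* and *Irs2*, against 7.15% of all windows. In *Irs2* the E-box at -44 to -39 directly adjoined the insulin response sequence. In *Irs1* the E-box at -115 to -110 overlapped the further TGTTTTG copy at -111 to -105. The TATA sequence TATAAA was found in *Igfbp4* alone among the members, at -28 to -23, against 13.6% of all windows. The forkhead sequence TGTTTAC was found in 1 *Igfals* window, against 3.65% of all windows. The STAT5 sequence TTCCNGGAA was found in no member window, against 1.15% of all windows. These matches describe letters in short windows. Binding was not analysed here. The windows of *Igf1* and *Igfals* lie inside the gene spans given below, which come from another annotation.

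**Figure D1:**
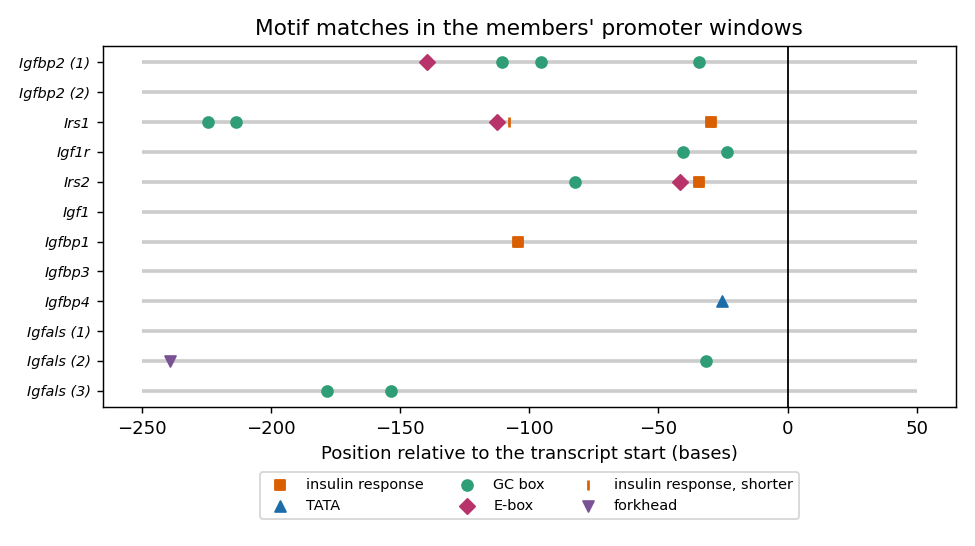
Motif matches in the 12 promoter windows of 9 members, plotted by position in bases relative to the annotated transcript start, with each grey line a window and each symbol a match. Windows of 1 gene are numbered in brackets, and the insulin response sequence appears in the windows of *Igfbp1*, *Irs1* and *Irs2*.

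The windows also differed in base composition. Across all genes the median window was 52.7% G or C and held 7 CpG sites. *Igf1r* had the most CpG-rich window of the members, with 76.0% G or C and 48 CpG sites, followed by *Irs2* with 41 and *Igfbp3* with 37 CpG sites. *Irs1* had 28 and *Igfbp4* 27 CpG sites. By CpG count, the low end of the members held *Igf1* (52.3% G or C, 6 CpG sites), *Igfbp1* (54.3%, 8 CpG sites) and the 3 *Igfals* windows (58% to 62%, 4 to 6 CpG sites). *Igf1* and *Igfbp1* were near the median of all genes.

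Levels of different genes are compared below per kb of transcript, the base mean divided by the median length of the coding transcripts that carry a RefSeq accession. By this measure the members ran from *Igf1* at 12063 to *Igf1r* at 4.03 per kb, and their median was 375, against 59.3 over the 15640 expressed genes with a length. Of the 10 members, 4 (*Igf1*, *Igfbp4*, *Igfbp2* and *Igfals*) lay in the top 10% of expressed genes, which began at 690 per kb, and 7 lay above the median gene. Of the 6 members that encode secreted proteins, 4 held the first places. *Insr* came next, followed by the secreted *Igfbp1* and *Igfbp3*, then by the IRS adaptors and *Igf1r*. With no spread between livers, whether neighbours in this order differ could not be tested.

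**Figure D2:**
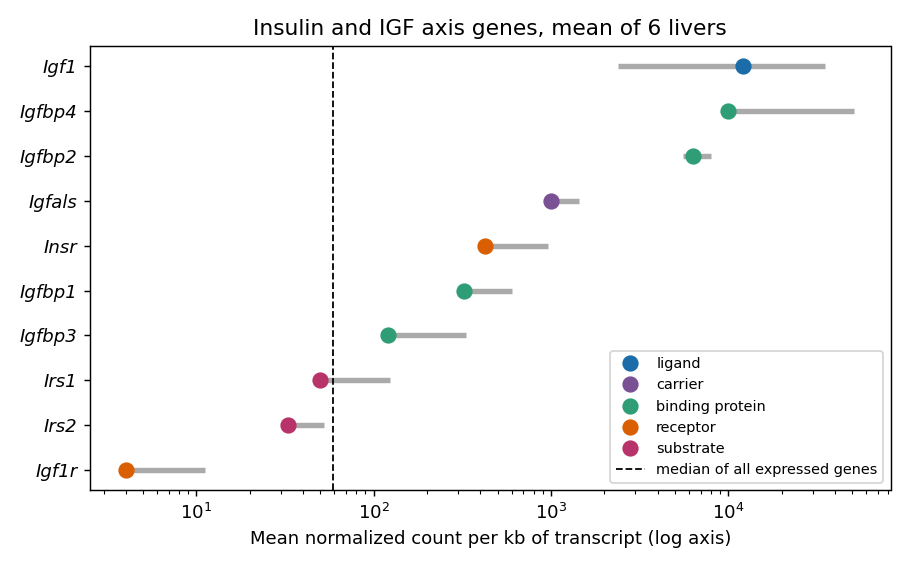
Level of each of the 10 members as mean normalized count per kb of transcript on a log axis, averaged by the authors over 6 livers of both groups. Points use the median RefSeq-matched transcript length and are coloured by role. Grey bars span the values under the other length choices and not an error. The dashed line is the median of all expressed genes at 59.3 per kb, under the median RefSeq-matched length only. That median was not recomputed for the other lengths, so a bar that crosses the line shows no change of place.

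*Igf1*, the hormone itself, lies at chr10:87858265-87937042 on build GRCm38 and had a base mean of 16779, or 0.0812% of the summed base mean. Its level of 12063 per kb exceeded 99.4% of expressed genes. This value depends strongly on transcript length, since its 5 transcripts run from 651 to 7052 bases: the level was 2379 per kb with the longest and 25774 per kb with the shortest. *Igfals*, encoding the acid-labile subunit, lies at chr17:24865997-24882010 and had a base mean of 2618, or 997 per kb. The level of *Igf1* was 12.1 times that of *Igfals* per kb. This ratio depends on the length choice too. With the longest transcript *Igf1* was at 2379 and *Igfals* at 997 per kb. With coding length *Igf1* was at 35176 and *Igfals* at 1447 per kb. *Igf2*, the other IGF ligand and a hormone chiefly of fetal tissue in rodents, was at 2.60 per kb, and the insulin gene *Ins1* was listed at 0.

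Among the binding proteins, which bind IGFs and govern their access to receptors, *Igfbp4* and *Igfbp2* made up most of the RNA. *Igfbp4*, at chr11:99041244-99054392, had the highest base mean of the members, 38078 or 0.184% of the sum. Per kb it reached 9939, below *Igf1*. That order turned under 3 of the 4 other lengths. With the longest transcript *Igfbp4* was at 9939 and *Igf1* at 2379 per kb, and *Igfbp2* at 5594 per kb also exceeded *Igf1*. With coding length *Igfbp4* was at 49971 and *Igf1* at 35176 per kb, and with all annotated coding transcripts *Igfbp4* was at 51318 and *Igf1* at 12270 per kb. *Igfbp2*, at chr1:72824503-72852474, had a base mean of 7312 and a level of 6363 per kb. *Igfbp1*, the binding protein whose hepatic expression insulin represses, had a base mean of 493 and a level of 324 per kb. *Igfbp3*, which carries most IGF-1 in plasma, was the lowest of the 4 at a base mean of 290 and 120 per kb.

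The 4 binding proteins thus spanned an 82.9-fold range per kb between *Igfbp4* and *Igfbp3*, which was 151-fold with coding length and 365-fold with all annotated coding transcripts. *Igfbp2* was 19.7 times as high as *Igfbp1*, and *Igfbp1* 2.70 times as high as *Igfbp3*. Summed per kb with *Igfbp5*, *Igfbp6* and the related *Igfbp7*, *Igfbp4* accounted for 56.0% and *Igfbp2* for 35.9% of the total, *Igfbp1* for 1.82% and *Igfbp3* for 0.676%. With coding length the share of *Igfbp4* was 81.8% and that of *Igfbp2* 13.1%, and with all annotated coding transcripts they were 86.8% for *Igfbp4* and 10.8% for *Igfbp2*. *Igfbp7* had 4.51%, more than *Igfbp1* and *Igfbp3* each. *Igfbpl1* was listed at 0.

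*Igfbp1* and *Igfbp3* are neighbours on chromosome 11 on opposite strands, at chr11:7197782-7202546 and chr11:7206086-7213923, with 3.54 kb between them. *Igfbp2* and *Igfbp5* on chromosome 1 are arranged likewise, 5.46 kb apart. In each pair the plus-strand gene had the higher level per kb: 324 for *Igfbp1* against 120 for *Igfbp3*, and 6363 for *Igfbp2* against 160 for *Igfbp5*.

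The receptors stood far apart. *Insr*, encoding the insulin receptor, lies at chr8:3122061-3279617 and had a base mean of 3985, a level of 426 per kb and a place above 84.9% of expressed genes. *Igf1r*, encoding the IGF-1 receptor, lies at chr7:67952827-68233668 and had a base mean of 46.0, a level of 4.03 per kb and a place above 23.1% of expressed genes. *Insr* was 106 times as high as *Igf1r* per kb and 86.6 times by base mean. *Ghr*, the growth hormone receptor, was at 5670 per kb, 0.470 times the level of *Igf1*. This direction depended on length, since *Ghr* was 1.57 times as high as *Igf1* with the longest transcript and 1.05 times with all annotated coding transcripts. *Ide*, which degrades insulin, was at 554 per kb, and *Insrr*, the insulin receptor-related receptor, at 0.743 per kb.

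The IRS adaptors couple the receptors to PI3K. *Irs1*, at chr1:82233101-82291416, had a base mean of 458 and a level of 50.1 per kb. *Irs2*, at chr8:10984681-11008458, had a base mean of 208 and a level of 32.9 per kb. *Irs1* was thus 1.52 times as high as *Irs2* per kb, and *Insr* was 8.51 times as high as *Irs1*. At their full transcript lengths of 9144 and 6323 bases, *Irs1* and *Irs2* lay under the median expressed gene, above 47.2% and 41.4% of expressed genes.

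Around the members, 67 other genes of the pathway were listed, of which 65 had a row, 63 were expressed and 2 were listed at 0. The other 2 were not analysed here. Their median was 153 per kb, against 375 for the members and 59.3 for all expressed genes, and 9 of the 63 lay in the top 10%. Genes of insulin-regulated metabolism were highest, with 7 of 8 in the top 10% and a median of 2372 per kb. The highest of the list were *Pck1*, the gluconeogenic enzyme, at 20672 and *G6pc*, which releases free glucose, at 3435 per kb. The lowest, and the only gene of the list outside the top 10%, was *Acaca*, of fatty acid synthesis, at 164 per kb. The growth hormone signalling genes were intermediate, from *Socs3* at 34.3 to *Stat5b* at 225 and *Socs2* at 242 per kb.

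The genes of the intracellular relay spanned 1.68 to 589 per kb, within the 4.03 to 12063 per kb of the members except for *Irs3*. Of 12 PI3K and AKT genes, 10 lay above the median gene, led by the AKT-activating kinase *Pdpk1* at 589 and *Akt1* at 459 per kb, with *Phlpp2*, a phosphatase of AKT, lowest at 23.0 per kb. Of 14 FOXO, GSK3 and mTOR genes, 12 lay above the median gene, from *Mlst8* at 34.0 to *Eif4ebp1* at 376 and *Rheb* at 506 per kb. Among the receptor adaptors and inhibitors, *Grb14*, an inhibitor of the insulin receptor, was at 561 and the adaptor *Shc1* at 366 per kb, whereas *Irs3* was at 1.68 per kb. The 6 proteases that cleave IGF binding proteins and their inhibitors were all below the median gene: *Adamts1* was at 39.7, *Htra1* at 20.9 and *Pappa* at 0.148 per kb.

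**Figure D3:**
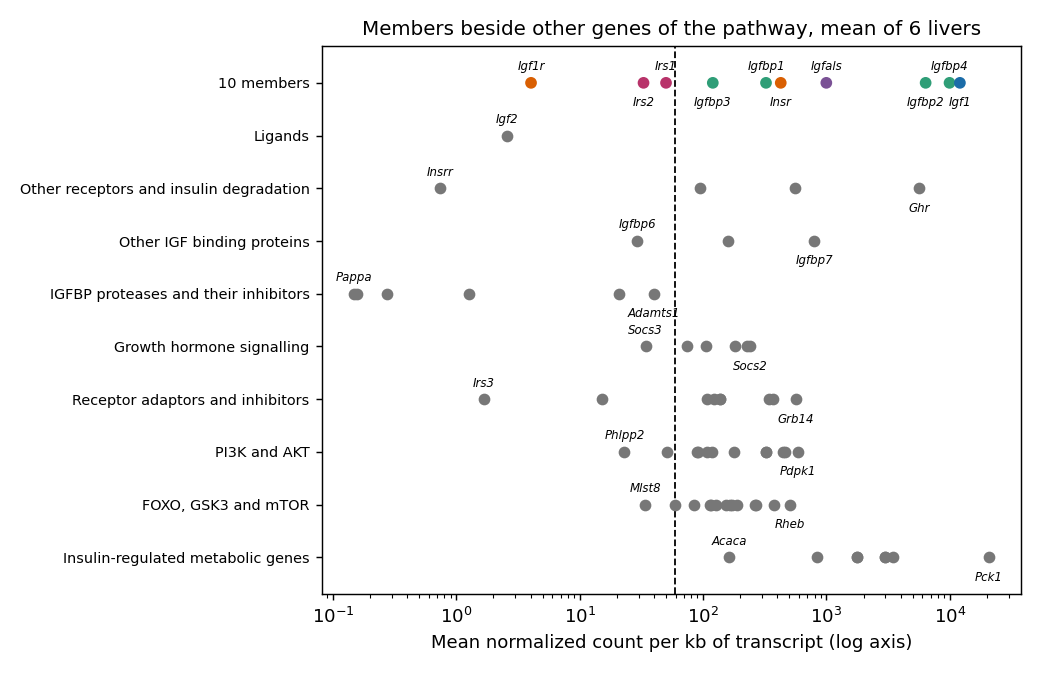
The 10 members and 63 expressed genes of 9 other pathway lists by mean normalized count per kb of transcript on a log axis, averaged by the authors over 6 livers of both groups. Each point is a gene, all members and the lowest and highest gene of each list are named, genes listed at 0 are not drawn, and the dashed line is the median expressed gene at 59.3 per kb.

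The labelled tissue was checked against marker lists. All 8 hepatocyte markers lay in the top 10% of expressed genes, with *Alb*, at 787945 per kb, the highest of the expressed genes with a length. Of the Kupffer cell or macrophage markers 5 of 6 lay above the median expressed gene, with *Cd5l* highest at 508 per kb. All 6 markers of sinusoidal endothelium did, with *Clec4g* highest at 704 per kb, and 4 of 6 stellate cell markers did, with *Dcn* highest at 1945 per kb. Of the cholangiocyte markers only *Spp1*, at 837 per kb, lay above the median gene, and the other 5 were between 0.575 and 16.5 per kb. The lymphocyte markers with a length were between 2.11 and 8.60 per kb, the highest being *Nkg7*, a range that includes *Igf1r* at 4.03 per kb. Which cells the RNA of the members came from was not tested, and in bulk liver fewer cells of a type cannot be told apart from less RNA per cell.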

How the data were processed

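Poly-A RNA-seq was performed on livers of 3 LSD1-LKO and 3 Control mice. Per the labels and methods, the authors mapped reads with STAR to mm10, assembled transcripts with StringTie and used DESeq2. The sources used here give neither versions nor the annotation. The deposited base mean is a normalized count signal, averaged by the authors over all 6 livers. Another 5 columns hold the authors' own comparison of the groups (log2 fold change, its standard error, test statistic, p-value and adjusted p-value) and were not used, so no contrast is reported. The number of other per-sample columns left unused was 0.

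Levels per kb were the base mean divided by the median length of coding transcripts in GENCODE vM21 (GRCm38) that carry a RefSeq accession, joined by Entrez ID. This length choice was made after levels under all GENCODE coding transcripts had been seen, and it changes which of *Igf1* and *Igfbp4* is higher. Both are given. A length was found for 15640 of 18442 genes with a base mean above 0, holding 93.5% of the summed base mean. Percentiles are the share of those genes with a lower level. Promoter windows came from RefSeq (GRCm38.p6) and gene spans from GENCODE vM21. The windows of *Irs2* and *Igf1r* lie wholly upstream of their GENCODE spans, so their motif positions depend on the annotation. Those of *Igf1* and *Igfals*, and the *Igfbp2* window from chr1:72825137, lie wholly inside their GENCODE spans. Their positions and base composition depend on the annotation too. The motifs were chosen by hand, and all 7 searched are reported. The named genes were all members, the 2 highest and the lowest gene per kb of each pathway list, genes listed at 0, the highest gene of each marker list and *Kdm1a*. Some genes of the pathway lists are not reported here and were left out of the counts. The members and lists were chosen with earlier results of these data known. Of the calculations, only the level per kb and the percentile were tested on simulated data. The software was Python 3.11.15, pandas 2.3.3, numpy 2.4.6 and matplotlib 3.10.9.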

Additional observations from a re-analysis of the deposited data

How the results depend on the processing

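The count of members in the top 10% of expressed genes was 4 when only genes with a base mean of at least 10 were ranked and 4 when genes listed at 0 were included. It was 5 when genes were ranked by base mean without length, an alternative chosen after seeing the data. With the longest transcript 7 of the 10 members kept their place in the order per kb and with the shortest all 10 did. With coding length, added after seeing the data, 8 did. With all GENCODE coding transcripts 8 did as well. That setting was not planned, and its levels had been seen before the reported length was chosen. The ratio of *Igfbp4* to *Igf1* per kb, 0.824 as reported, turned to 4.18 with the longest transcript, 1.42 with coding length and 4.18 with all GENCODE coding transcripts. The ratio of *Ghr* to *Igf1*, 0.470 as reported, turned to 1.57 with the longest transcript and 1.05 with all GENCODE coding transcripts. The ratio of *Insr* to *Igf1r* per kb was 86.4 with coding length and 197 with all GENCODE coding transcripts. The ratio of *Irs1* to *Irs2* was 2.36 with coding length. The ratio of *Igfbp4* to *Igfbp2* was 1.78 with the longest transcript, 1.35 with the shortest, 6.25 with coding length and 8.06 with all GENCODE coding transcripts. The share of each member in the summed base mean was 1.22 times as high when the 10 genes of highest base mean were left out of the sum, and 1.06 times without the 15 genes of the mitochondrial genome. No paired analysis was possible because the value used is a mean over all livers. For the same reason leaving out single livers, count or log-scale tests and other scalings were not run, and the RefSeq coding length was replaced by that of GENCODE.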
